A study of Mus musculus with 4 samples.

Results

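The Serpin genes encode the serpins, a superfamily of proteins that mostly inhibit proteases, and comprised 60 of the 20807 protein-coding genes of chromosomes 1 to 19 in GENCODE vM21. They were chosen by name alone, and the letter after Serpin gives the clade. Clade A had 23 members, clade B had 26, and clades C to I together had 11. For each gene, the listed peaks that overlapped the 5 kb on either side of its transcription start site (TSS, the annotated 5′ end of the gene) and the peaks in its gene body were examined.

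Most serpins trap a protease with an exposed reactive loop that is cleaved and then drags the protease into a dead complex. The liver is known as the main source of the serpins of plasma, among them alpha-1-antitrypsin, antithrombin and C1 inhibitor, which hepatocytes secrete to control clotting, fibrinolysis, complement and neutrophil proteases. Clade B serpins lack a classical secretion signal and mostly act inside cells, many of them leukocytes and epithelia. A few members, such as the collagen chaperone Serpinh1 and the corticosteroid carrier Serpina6, inhibit no protease.

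Chromatin accessibility (ATACseq) and occupancy by the histone variant H2A.Z (chromatin immunoprecipitation of micrococcal nuclease fragments) were profiled in 1 WT and 1 Uhrf1hepKO liver, and the same 2 livers served for both assays. Both came from C57Bl/6 males of 8 to 12 weeks on normal diet, with the liver taken in the morning. The WT liver carried the floxed Uhrf1 allele (Uhrf1 fl/fl) without Cre, and the Uhrf1hepKO liver was Uhrf1 fl/fl;Alb:Cre. Alb:Cre is meant to delete in hepatocytes. Uhrf1 encodes a factor needed to maintain DNA methylation, and whether the other cells of the Uhrf1hepKO liver kept it was not measured. In bulk liver, fewer cells of a type and less signal per cell cannot be told apart. Each condition was 1 library, so no difference has a replicate check and no p-value was computed. Differences between WT and Uhrf1hepKO are differences between these 2 livers, and genotype and animal cannot be told apart.

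The lists held 10582 WT and 10764 Uhrf1hepKO ATACseq peaks and 51450 WT and 47135 Uhrf1hepKO H2A.Z peaks on the chromosomes used. Read depth was not given in the sources used here, and the background implied by the lists was shallow, at 1.56 and 2.0 reads per position for ATACseq and 3.10 and 3.30 for H2A.Z. A gene without a listed peak therefore had no enrichment detectable at this depth, which does not show that its chromatin was closed or free of H2A.Z. The targeted gene, Uhrf1, had a peak within 5 kb of its TSS in all 4 lists, which says nothing of the deletion. Of 5 hepatocyte marker genes, Alb had an ATACseq peak near the TSS in Uhrf1hepKO and Ttr an H2A.Z peak in WT, and Apoa1, Apoc3 and Cps1 had none in any list. The 3 Kupffer cell, 3 endothelial, 3 stellate and 3 leukocyte markers had no peak near the TSS in any list, and of the cholangiocyte markers Sox9 had peaks in 3 of 4 lists. In gene bodies, all 3 endothelial markers had an H2A.Z peak in each liver, and 2 in WT and 1 in Uhrf1hepKO had an ATACseq peak. For H2A.Z, 1 stellate marker had a body peak in each liver, and the hepatocyte, Kupffer cell, cholangiocyte and leukocyte markers had none. The tissue label could therefore not be checked by marker peaks.

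Sequences are shown first for ATACseq peaks of the Uhrf1hepKO liver in clade A, because the WT list held no peak overlapping them. All are from GRCm38 and are written 5′ to 3′ on the strand of the gene. Capitals mark matches, on either strand, to the letters TTGCNNAA, a core of C/EBP sites. They are the Serpina3k peak (chr12:104337033-104337150, plus strand), the Serpina1d peak (chr12:103773755-103773926, minus strand) and the Serpina12 peak (chr12:104041554-104041667, minus strand).
Serpina3k: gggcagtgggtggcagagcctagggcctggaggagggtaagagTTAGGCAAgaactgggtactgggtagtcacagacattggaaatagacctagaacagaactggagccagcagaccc
Serpina1d: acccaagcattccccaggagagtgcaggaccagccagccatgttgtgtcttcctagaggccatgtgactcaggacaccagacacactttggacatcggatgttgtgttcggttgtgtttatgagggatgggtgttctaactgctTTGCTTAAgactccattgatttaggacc
Serpina12: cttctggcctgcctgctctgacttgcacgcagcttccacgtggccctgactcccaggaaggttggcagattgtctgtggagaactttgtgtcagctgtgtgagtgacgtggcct

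The RefSeq promoter windows (GRCm38.p6, 250 bases before to 50 after the RefSeq start) of Serpina1a and Serpina1d show how alike the alpha-1-antitrypsin copies are, which bears on where reads can be placed. Capitals mark GTTAAT, a core of HNF1 sites, and TTGCNNAA. Serpina1a lies at chr12:103863570-103863869 and Serpina1d at chr12:103773584-103773883, both on the minus strand.
Serpina1a promoter: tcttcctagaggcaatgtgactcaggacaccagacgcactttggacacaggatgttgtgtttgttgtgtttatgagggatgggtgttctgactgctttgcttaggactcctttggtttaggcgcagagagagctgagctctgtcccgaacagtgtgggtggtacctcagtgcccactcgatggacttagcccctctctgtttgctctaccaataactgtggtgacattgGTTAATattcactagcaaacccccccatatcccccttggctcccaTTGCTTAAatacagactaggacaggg
Serpina1d promoter: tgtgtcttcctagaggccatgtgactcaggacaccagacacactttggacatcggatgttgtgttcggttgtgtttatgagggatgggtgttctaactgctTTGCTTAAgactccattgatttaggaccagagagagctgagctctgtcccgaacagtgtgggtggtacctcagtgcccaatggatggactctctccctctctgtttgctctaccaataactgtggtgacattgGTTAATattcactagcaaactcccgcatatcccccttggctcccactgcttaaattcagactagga

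The H2A.Z peaks of Serpina10 and Serpini1 are shown because they recurred in both livers. The 3 WT peaks upstream of Serpina10 lie at chr12:103631609-103631718, chr12:103633735-103633846 and chr12:103635851-103635946, on the minus strand, and capitals mark TTCNNNGAA, a STAT site. The WT peak upstream of Serpini1 (chr3:75557179-75557392, plus strand) is written with each CpG in capitals.
Serpina10, nearest: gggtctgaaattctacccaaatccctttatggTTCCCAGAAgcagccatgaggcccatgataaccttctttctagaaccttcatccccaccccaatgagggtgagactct
Serpina10, middle: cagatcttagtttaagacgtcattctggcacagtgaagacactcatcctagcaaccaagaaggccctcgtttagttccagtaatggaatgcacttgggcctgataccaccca
Serpina10, farthest: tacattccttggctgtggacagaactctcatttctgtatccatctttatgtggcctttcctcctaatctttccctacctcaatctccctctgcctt
Serpini1: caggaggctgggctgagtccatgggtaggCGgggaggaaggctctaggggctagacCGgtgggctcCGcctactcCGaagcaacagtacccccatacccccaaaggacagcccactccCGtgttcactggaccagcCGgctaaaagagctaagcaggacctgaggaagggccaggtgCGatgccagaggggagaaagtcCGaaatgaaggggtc

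The last pair shows the range of CpG content among member promoters, again with each CpG in capitals. The Serpine2 window (chr1:79858616-79858915, minus strand) held 41 CpGs, the most of the 59 RefSeq windows of members. The Serpinb12 window (chr1:106938707-106939006, plus strand) was 1 of 12 member windows with 0 CpGs.
Serpine2 promoter: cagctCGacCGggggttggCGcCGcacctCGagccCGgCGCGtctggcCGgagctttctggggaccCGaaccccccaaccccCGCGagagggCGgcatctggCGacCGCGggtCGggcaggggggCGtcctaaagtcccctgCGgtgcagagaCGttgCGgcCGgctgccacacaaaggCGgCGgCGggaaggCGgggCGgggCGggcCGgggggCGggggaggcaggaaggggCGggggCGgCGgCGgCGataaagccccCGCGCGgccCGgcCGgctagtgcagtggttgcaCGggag
Serpinb12 promoter: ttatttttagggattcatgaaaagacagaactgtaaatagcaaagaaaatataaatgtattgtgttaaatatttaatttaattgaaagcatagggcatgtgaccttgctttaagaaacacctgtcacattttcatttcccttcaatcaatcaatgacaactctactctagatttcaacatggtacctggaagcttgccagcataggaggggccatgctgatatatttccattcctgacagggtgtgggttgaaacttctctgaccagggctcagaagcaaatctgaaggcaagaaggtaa

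Few Serpin genes had a listed peak near the TSS. In the WT liver, 5 of 60 (8.33%, Wilson 95% interval 3.61 to 18.1%) carried an ATACseq call inside the 5 kb TSS window, against 31.4% of all protein-coding genes. In the Uhrf1hepKO liver 7 of 60 (11.7%, 5.77 to 22.2%) had one, against 29.0% of all genes. For H2A.Z the counts were 16 of 60 in WT (26.7%, 17.1 to 39.0%), against 54.4% of all genes, and 17 of 60 in Uhrf1hepKO (28.3%, 18.5 to 40.8%), against 52.6%. All 4 intervals lay below the share of all genes. The intervals cover counting error only, and members of a cluster are neighbours that can share a peak, so they are not independent draws.

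Gene bodies, from annotated start to end, gave the same picture. ATACseq peaks were found in 4 of 60 bodies in WT (6.67%), against 31.3% of all genes, and in 4 of 60 in Uhrf1hepKO (6.67%), against 29.6%. H2A.Z peaks were found in 16 bodies in WT (26.7%), against 47.8%, and in 15 in Uhrf1hepKO (25.0%), against 45.0%. In all, 40 of the 60 members had no peak of any list within 5 kb of the TSS, and 35 had none there or in the body. The 35 were 13 of clade A, 19 of clade B and 3 of clades C to I, namely Serpinf2 (alpha-2-antiplasmin), Serpinh1 and Serpini2 (pancpin). These counts over any list were made for members alone, so no share of all genes stands beside them. List by list, the TSS windows of CpG-poor members were close to those of other CpG-poor genes, as given below.

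**Figure D1:**
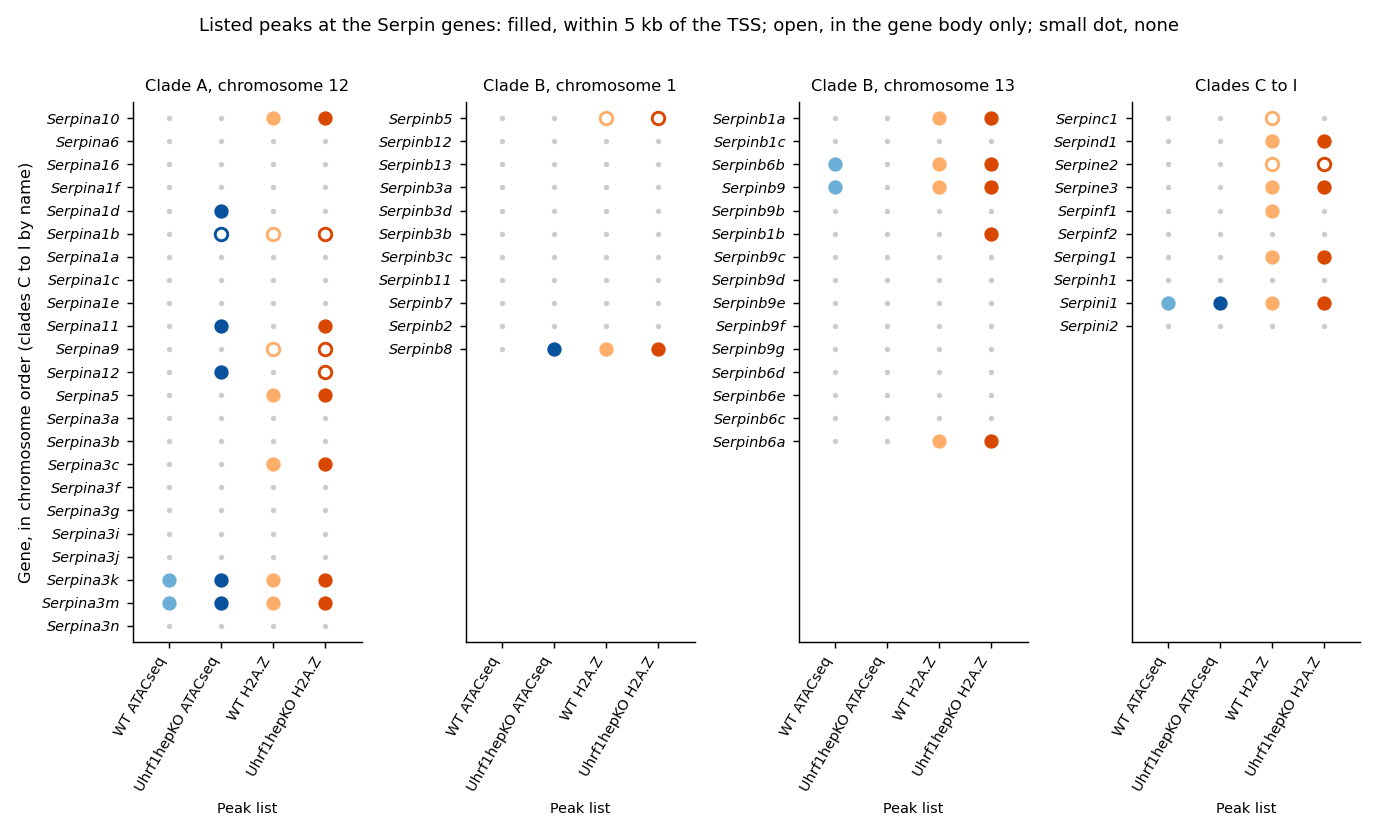
Listed peaks at 59 of the 60 Serpin genes, with genes as rows by cluster and the 4 peak lists as columns. A filled circle is a peak within 5 kb of the TSS, an open circle a peak in the gene body only and a small grey dot no peak. H2A.Z circles mostly come in pairs across the 2 livers, 14 of the genes drawn having a filled circle in both, whereas 3 have an ATACseq filled circle in both.

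Distance gave the same order of groups. The median distance from a member's TSS to the nearest WT H2A.Z peak was 22.2 kb, against 2.19 kb over all genes, and in Uhrf1hepKO it was 25.8 kb against 3.21 kb. By clade, the WT median was 22.0 kb for clade A, 41.2 kb for clade B and 0.490 kb for clades C to I. For WT ATACseq the medians were 84.0 kb in clade A, 169 kb in clade B and 31.8 kb in clades C to I, against 29.1 kb over all genes. In WT the scattered members of clades C to I were near the gene-wide medians and the clustered members of clades A and B were not. In Uhrf1hepKO the H2A.Z median of clades C to I was 15.2 kb, and this move of the median came from 1 of the 11 genes, Serpinf1, whose nearest peak was at 0 bp in WT and 19522 bp in Uhrf1hepKO.

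Serpin promoters were also poor in CpGs, a property the choice by name did not use. The median member had 8 CpGs within 500 bp of its TSS, against 43 over all protein-coding genes, and 54 of 60 members (90.0%) had at most 20, against 34.9% of all genes. The 6 members above 20 included Serpinb6a with 81, Serpinh1 with 38, Serpini1 with 37, and Serping1 and Serpina12 with 23 each. Serpine2 had 13 at its annotated 5′ end, although its RefSeq window 2515 bp away is the CpG-dense one printed above, and none of the 4 lists had a peak within 5 kb of either start. A bound of 20 CpGs was set after the lists had been seen.

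Among genes of at most 20 CpGs the shares were close to those of other genes of that kind. ATACseq calls fell in the TSS window of 4 of 54 such members in WT (7.41%, interval 2.92 to 17.6%), against 7.72% of the 7258 genes of that class, and in 5 of 54 in Uhrf1hepKO (9.26%, 4.02 to 19.9%), against 7.80%. An H2A.Z peak lay there in 12 of 54 in WT (22.2%, 13.2 to 34.9%), against 21.8%, and in 13 of 54 in Uhrf1hepKO (24.1%, 14.6 to 36.9%), against 20.7%. All 4 intervals held the share of the class. With bounds of 10 and 30 CpGs, the WT H2A.Z shares were 15% of members against 15% of the class, and 24.6% against 25.9%.

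**Figure D2:**
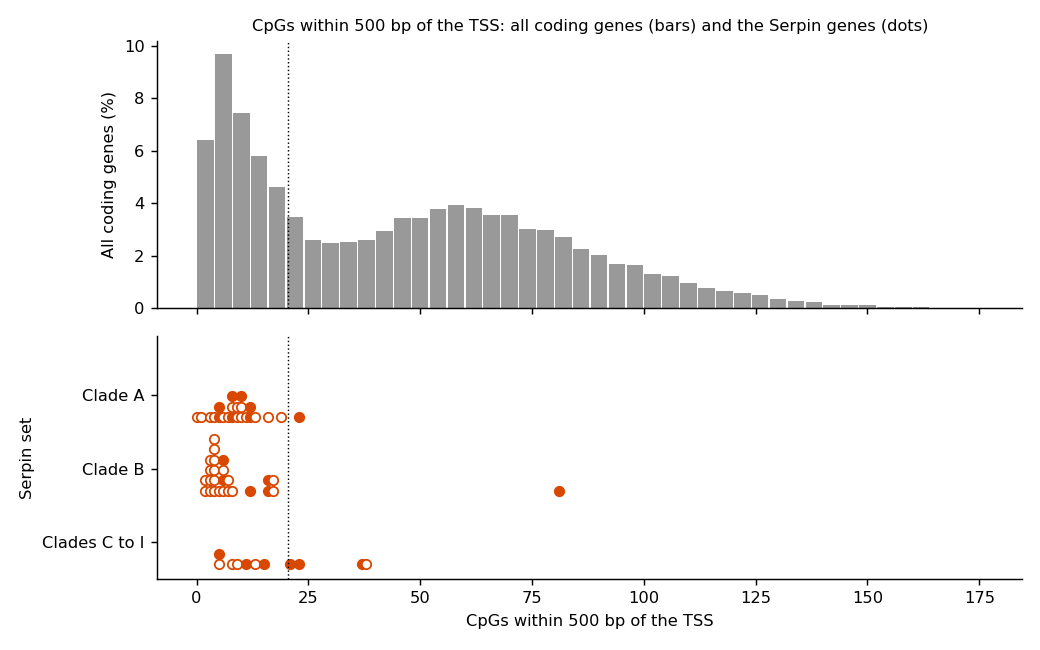
CpGs within 500 bp of the TSS, with the upper panel giving the percent of all 20807 protein-coding genes in bins of 4 CpGs and the lower panel 1 circle per Serpin gene by set. Filled circles have a peak of any list within 5 kb of the TSS, open circles none, and the dotted line is the bound of 20 CpGs, which 54 of 60 members do not pass.

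By clade, H2A.Z peaks near the TSS were found in 5 of 23 clade A genes in WT (21.7%, interval 9.66 to 41.9%) and 6 of 23 in Uhrf1hepKO (26.1%), in 5 and 6 of 26 clade B genes (19.2%, 8.51 to 37.9%, and 23.1%), and in 6 and 5 of the 11 genes of clades C to I (54.5%, 28.0 to 78.7%, and 45.5%). ATACseq peaks near the TSS were found in 2 and 5 clade A genes, 2 and 1 clade B genes and 1 and 1 of clades C to I. The intervals of the clades overlap each other. Of 16 plasma serpins of textbook hepatocyte origin, 6 had an H2A.Z peak near the TSS in each liver (37.5%, 18.5 to 61.4%). An ATACseq peak lay there for 2 in WT and 4 in Uhrf1hepKO. Over all genes the WT and Uhrf1hepKO shares were 54.4 and 52.6% for H2A.Z and 31.4 and 29.0% for ATACseq. Over genes of at most 20 CpGs they were 21.8 and 20.7%, and 7.72 and 7.80%. Clade A and the plasma list both hold Serpina3k and Serpina3m, whose TSS windows are the same and hold the same peaks. This pair made up the 2 WT ATACseq genes of both sets.

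**Figure D3:**
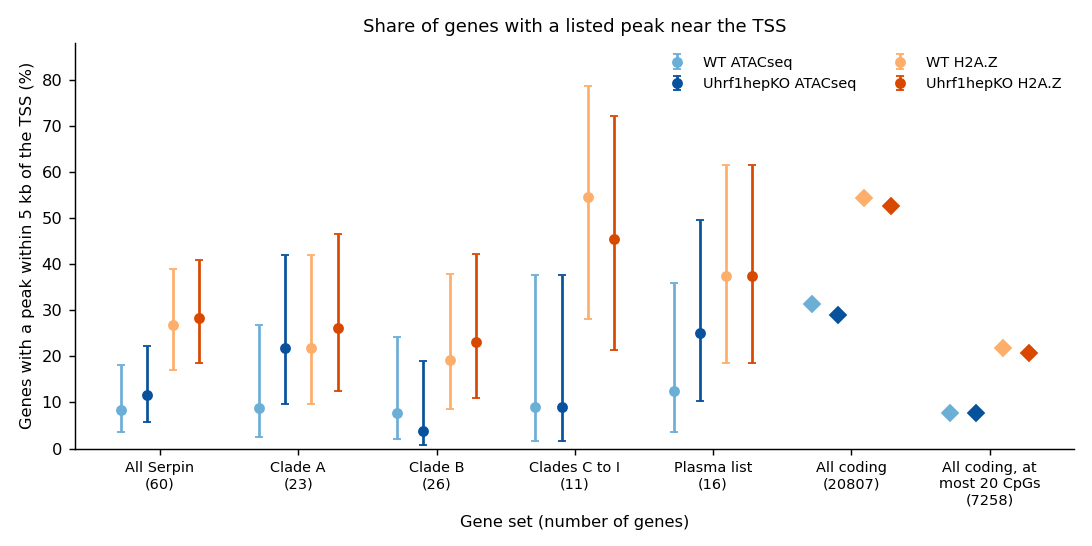
Percent of genes with a listed peak within 5 kb of the TSS, by gene set and peak list, with Wilson 95% intervals as bars for the Serpin sets and diamonds for all protein-coding genes. The Serpin points of all 60 members lie at 8.33 to 28.3%, below the diamonds of all coding genes at 29.0 to 54.4% and near those of genes with at most 20 CpGs at 7.72 to 21.8%.

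Between the livers, the H2A.Z calls at Serpin genes were largely shared. An H2A.Z peak lay near the TSS in both livers for 15 members, in WT alone for 1 (1.67%, against 3.99% of all genes), Serpinf1, and in Uhrf1hepKO alone for 2 (3.33%, against 2.17%), Serpina11 and Serpinb1b. Of all 20807 genes, 10489 had one in both livers, 830 in WT alone and 452 in Uhrf1hepKO alone. Of the 26 WT H2A.Z peaks in member windows, 20 were overlapped by a Uhrf1hepKO peak (76.9%, interval 57.9 to 89.0%), against 78.3% over the windows of all genes. The summits of the 20 pairs lay a median of 26.0 bp apart, and 17 of 20 lay within 50 bp (85.0%, against 75.6% over all genes). Fold enrichment is not scaled between libraries, so each peak is given with the percentile of its fold within its own list. By that rank, 10 of the 20 pairs ranked higher in Uhrf1hepKO and 10 lower.

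ATACseq calls at Serpin genes were few, weak and mostly not shared. Near the TSS, 3 members had one in both livers, 2 in WT alone (3.33%, against 7.44% of all genes), Serpinb6b and Serpinb9, and 4 in Uhrf1hepKO alone (6.67%, against 5.07%), Serpinb8, Serpina1d, Serpina11 and Serpina12. Of all 20807 genes, 4989 had an ATACseq peak there in both livers, 1548 in WT alone and 1055 in Uhrf1hepKO alone. The one-liver shares are taken over all genes of a set, so a set with few calls has low shares. Of the 4 WT peaks in member windows, 1 was overlapped by a Uhrf1hepKO peak (25.0%, interval 4.56 to 69.9%), against 72.9% over the windows of all genes. That shared peak was at Serpini1. Counting windows and bodies, the 4 WT and 5 Uhrf1hepKO peaks that were not overlapped had folds of 3.24 to 3.65 and 3.36 to 3.65, with q-values of 0.0303 to 0.0673 and 0.0225 to 0.0455, close to the edge of what was listed. None of the member ATACseq peaks held a stretch of 75 bases found elsewhere in the genome. At a q-value of at most 0.01, the members with an ATACseq peak near the TSS fell from 5 to 1 in WT and from 7 to 1 in Uhrf1hepKO, leaving Serpini1 in each.

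**Figure D4:**
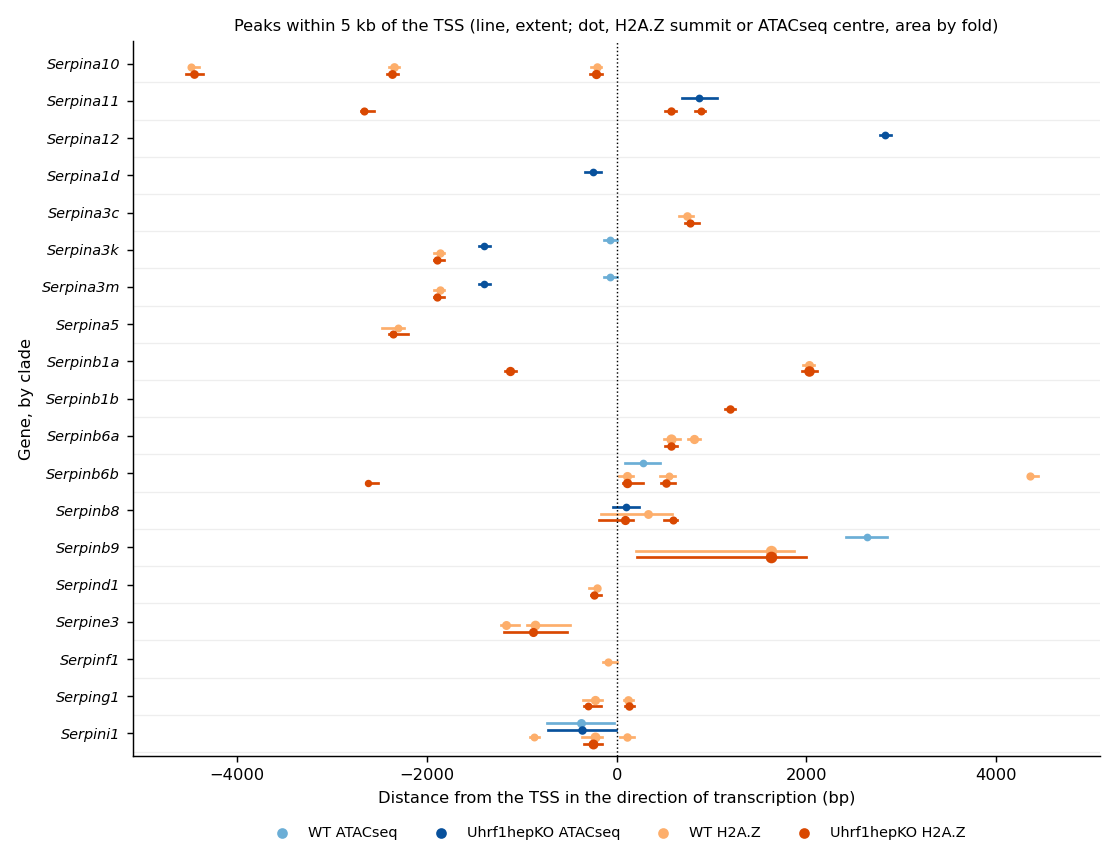
Position of every peak within 5 kb of the TSS for 19 of the 20 members that had one, in bp along the direction of transcription. Lines give the extent of a peak, dots the H2A.Z summit or the ATACseq centre with an area that grows with fold, and colours the 4 lists. The paired H2A.Z peaks lie at nearly the same distance in both livers, as at Serpina10, where they sit at -212, -2349 and -4484 bp in WT and at -213, -2365 and -4456 bp in Uhrf1hepKO.

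All 23 clade A genes lay in 1 run on chromosome 12 of 800 kb, without another coding gene. H2A.Z peaks were not sparse there, with 18 in WT (22.5 per Mb, against 20.6 over the genome) and 20 in Uhrf1hepKO (25.0 against 18.8 per Mb). Over chromosome 12 the densities were lower, at 16.8 per Mb in WT and 15.2 per Mb in Uhrf1hepKO. The peaks of the run include those between its genes. The H2A.Z peaks were uneven along the run. The longest stretch without an H2A.Z peak measured 245 kb in WT and 231 kb in Uhrf1hepKO, and the TSSs of Serpina1a, Serpina1b, Serpina1c, Serpina1d and Serpina1e all fell in it by their annotated 5′ ends. The RefSeq start of Serpina1b lies outside this stretch, and no list had a peak within 5 kb of it. There were 3 WT and 4 Uhrf1hepKO ATACseq peaks (3.75 and 5.0 per Mb, against 4.24 and 4.32).

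The Serpina1 genes encode alpha-1-antitrypsin, the plasma inhibitor of neutrophil elastase, and no H2A.Z peak was listed in the TSS window of any of the 5 copies in either liver. The Uhrf1hepKO ATACseq peak at Serpina1d was the nearest to a start, centred 248 bp upstream, with a fold of 3.50 (percentile 20.1 of its list) and a q-value of 0.0436. The WT list had no peak there. In these copies reads may have several equally good placements, and the treatment of such reads is not given in the sources used here. Within 5 kb of their TSSs, 16.1 to 42.3% of all 75-base stretches recurred in the genome, against a median of 2.07% over members, and the promoter windows of Serpina1a to Serpina1d were 85.2 to 91.4% identical to each other and 63.9 to 69.3% identical to that of Serpina1e. Whether this changed the number of peaks listed at these genes was not tested.

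The annotated body of Serpina1b is unusual in that its 5′ end lies 92184 bp from the RefSeq start and the body spans Serpina1d. It contained H2A.Z peaks at about the same place in both livers, with folds of 7.07 in WT (percentile 80.8) and 5.81 in Uhrf1hepKO (percentile 61.0) and summits 15944 and 15936 bp from the TSS of Serpina1d, which was the nearest coding TSS. The WT list held another H2A.Z peak nearby whose 75-base stretches all occur at 2 places.

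Serpina3k and Serpina3m, relatives of alpha-1-antichymotrypsin, share an annotated 5′ end, so each peak there was counted for both. A WT ATACseq peak covered this start, with a fold of 3.65 (percentile 15.4, q-value 0.0303). Another WT ATACseq peak lay in both bodies, 7619 bp downstream (fold 3.24, percentile 2.51, q-value 0.0316). The Uhrf1hepKO ATACseq peak was centred 1395 bp upstream, with a fold of 3.36 (percentile 10.4, q-value 0.0332), and overlapped no WT peak. An H2A.Z peak further upstream began at the same base in both livers, with summits at -1864 bp in WT (fold 4.63, percentile 38.1) and -1896 bp in Uhrf1hepKO (fold 4.47, percentile 27.2). Serpina3m has another transcript start 48678 bp downstream. In its body, a WT H2A.Z peak (fold 5.36, percentile 56.7) lay 1217 bp from that start. A Uhrf1hepKO H2A.Z peak (fold 5.33, percentile 46.2) lay 11519 bp from it, and these did not overlap. Serpina3n, the acute-phase relative at the end of the run, had no listed peak.

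Serpina10 encodes the protein Z-dependent inhibitor of coagulation factor Xa and had 3 H2A.Z peaks upstream of its TSS in each liver. The 3 upstream peaks shown above were 2137 and 2135 bp apart in WT and 2152 and 2091 bp apart in Uhrf1hepKO. In order of distance from the TSS, their folds were 4.87, 5.36 and 4.14 in WT (percentiles 44.8, 56.7 and 23.4). In Uhrf1hepKO they were 6.51, 5.58 and 5.35 (percentiles 71.6, 56.7 and 51.7). All 3 peaks overlapped between the livers, and no ATACseq peak was listed near the gene in either.

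Serpina11 had peaks of both assays in the Uhrf1hepKO liver and none in WT. Its ATACseq peak lay in an intron 873 bp downstream of the TSS (fold 3.60, percentile 26.8, q-value 0.0263), with an H2A.Z peak inside it at 891 bp and others at 572 bp downstream and 2658 bp upstream. The 3 H2A.Z folds were 3.95, 4.65 and 4.18, at or below percentile 33.5 of their list. Serpina12 (vaspin, better known from fat tissue) had a Uhrf1hepKO ATACseq peak 2833 bp downstream of the TSS (fold 3.65, percentile 29.8, q-value 0.0225) and a Uhrf1hepKO H2A.Z peak 10329 bp downstream, both in introns, and no WT peak. All of these peaks ranked in the lower part of their lists by fold. For the ATACseq peaks, gain in 1 liver cannot be told apart from a call near the threshold. The H2A.Z peaks had q-values of 5.6e-07 to 6.8e-05, below the highest listed of 0.0489, and whether they reflect gain was not tested.

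Other clade A genes had H2A.Z without ATACseq peaks. Serpina5, the protein C inhibitor, had a peak 2307 bp upstream in WT (percentile 16.8) and 2353 bp upstream in Uhrf1hepKO (percentile 20.5). Serpina3c had an intronic peak at 740 bp in WT (percentile 51.2) and 774 bp in Uhrf1hepKO (percentile 26.9). Serpina9, known from germinal centre B cells, had 3 intronic peaks in each liver, all overlapping, at 7495, 10198 and 10737 bp in WT. Serpina6, the corticosteroid-binding globulin of plasma, had no listed peak.

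**Figure D5:**
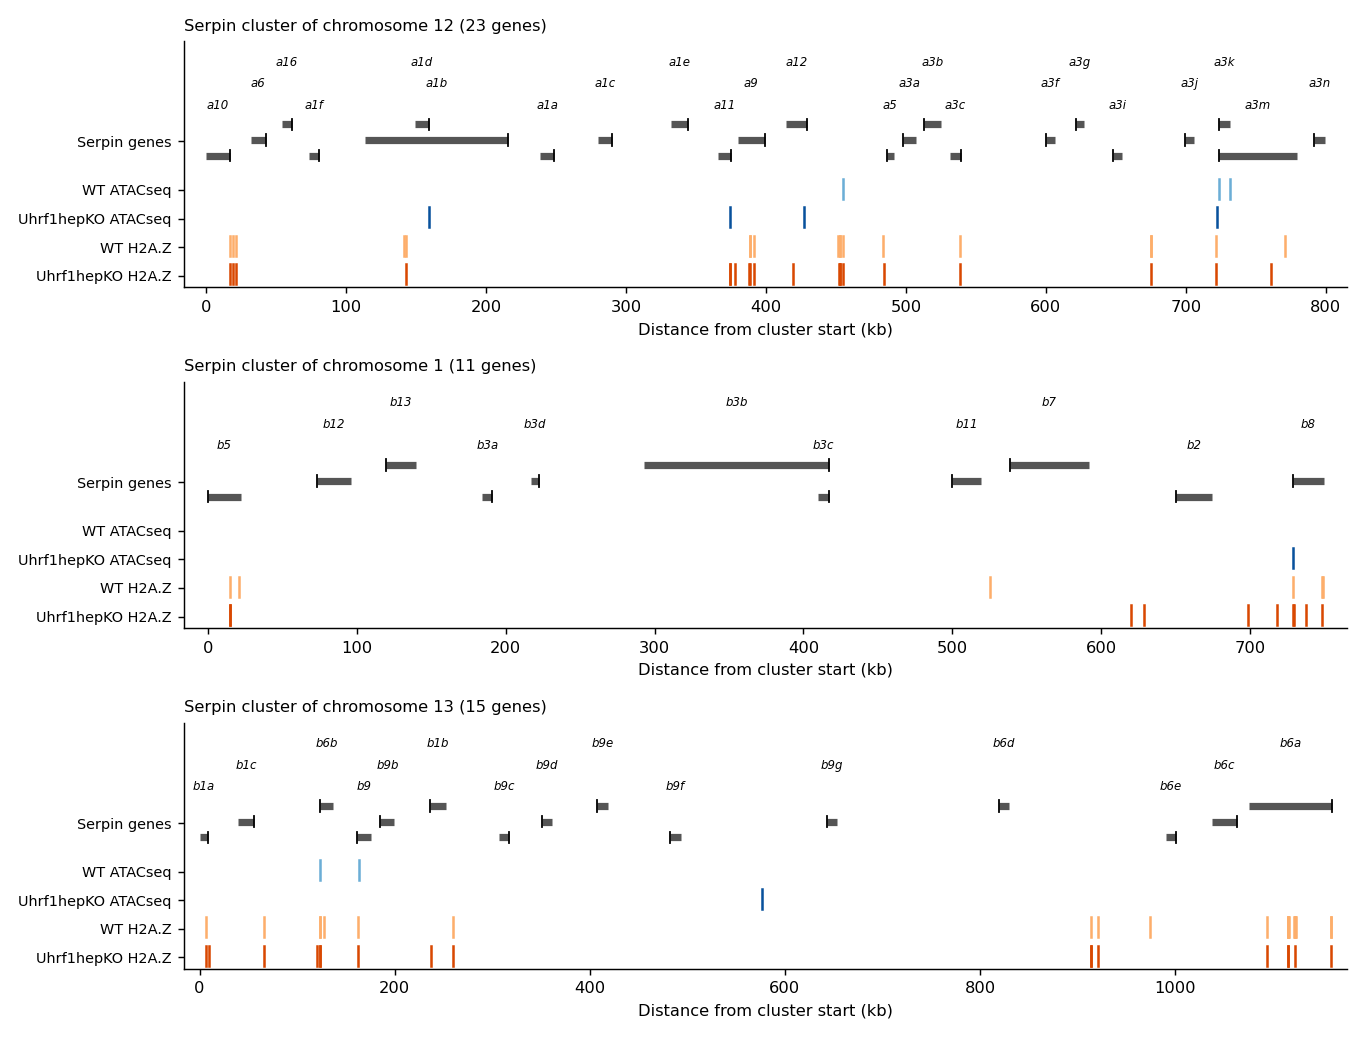
Maps of the 3 Serpin clusters, with the distance from the cluster start in kb on the x axis, gene bodies as grey bars with a tick at the TSS, and 1 coloured tick per peak in a row for each list. Names omit Serpin. H2A.Z ticks recur at the same places in both livers, and stretches without them cover the annotated Serpina1 starts, the middle of the chromosome 1 cluster and 653 kb of the chromosome 13 cluster.

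Clade B genes lay in 2 runs. The chromosome 1 run held 11 genes in 749 kb and no WT ATACseq peak at all, 1 Uhrf1hepKO ATACseq peak, and 6 WT and 10 Uhrf1hepKO H2A.Z peaks (8.01 and 13.3 per Mb, against 20.6 and 18.8 over the genome). A stretch of 504 kb in WT and 605 kb in Uhrf1hepKO had no H2A.Z peak and contained the TSSs of 7 and 8 genes, among them the Serpinb3 genes, which encode squamous cell carcinoma antigen relatives. Of the 11 genes, 9 had no peak in the window or body in any list, a count that was not made over all genes.

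The exceptions stood at the ends of that run. Serpinb8, an inhibitor of furin, had H2A.Z over its TSS in both livers, in WT with a fold of 5.61 (percentile 61.5) over 750 bp and in Uhrf1hepKO with a fold of 6.27 (percentile 68.5) over 362 bp. An ATACseq peak covered the same TSS in Uhrf1hepKO alone, with a fold of 3.49 (percentile 19) and a q-value of 0.0455. Serpinb5 (maspin), at the other end, had an intronic H2A.Z peak at 15127 bp in WT (fold 6.82, percentile 78.5), which Uhrf1hepKO peaks at 14783 bp (percentile 14.8) and 15121 bp (percentile 20.5) overlapped.

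The chromosome 13 run held 15 Serpin genes and 3 other coding genes in 1161 kb. It had 21 WT and 17 Uhrf1hepKO H2A.Z peaks (18.1 and 14.6 per Mb), 2 WT ATACseq peaks and 1 Uhrf1hepKO ATACseq peak, the last between members. A stretch of 653 kb had no H2A.Z peak in either liver and contained the TSSs of Serpinb9c, Serpinb9d, Serpinb9e, Serpinb9f, Serpinb9g and Serpinb6d. In 2 of these windows many of the 75-base stretches recurred in the genome, at 47.5% for Serpinb9g and 35.9% for Serpinb9f.

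Serpinb9, the inhibitor of granzyme B that protects cytotoxic cells, had the strongest H2A.Z signal of all members in both livers. Its peak was 1666 bp wide with a fold of 11.5 (percentile 98.6) in WT and 1784 bp wide with a fold of 12.1 (percentile 98.7) in Uhrf1hepKO, and the summits lay at 1629 and 1628 bp. The RefSeq start of Serpinb9, 1291 bp downstream of the annotated 5′ end, fell within both peaks. An ATACseq peak at 2635 bp was listed in WT alone (fold 3.48, percentile 5.20, q-value 0.0673).

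Serpinb6b had H2A.Z peaks just downstream of its TSS in both livers, at 114 bp in WT (fold 6.09, percentile 69.4) and 113 bp in Uhrf1hepKO (fold 6.74, percentile 74.5). A WT ATACseq peak overlapped them at 276 bp (fold 3.45, percentile 4.53, q-value 0.0657), and Uhrf1hepKO had none. Serpinb1a, an inhibitor of neutrophil elastase and cathepsin G, had an intronic H2A.Z peak at 2025 bp in WT and 2030 bp in Uhrf1hepKO. Its fold was 5.85 in WT (percentile 65.6) and 9.30 in Uhrf1hepKO (percentile 92.8), and Uhrf1hepKO had another peak 1122 bp upstream (fold 6.51, percentile 71.6). Its neighbour Serpinb1b had a Uhrf1hepKO H2A.Z peak alone, at 1198 bp (percentile 39.8).

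Serpinb6a was the 1 member of clade B with a CpG-rich start, and its peaks could not be assigned to it alone. Its TSS lies close to that of Ripk1, which encodes a kinase of cell death signalling, and the H2A.Z peaks near it were nearest to the Ripk1 TSS. The shared one had a fold of 8.53 in WT (percentile 90.9) and 4.88 in Uhrf1hepKO (percentile 39.8), 139 and 142 bp from the Ripk1 TSS. Other H2A.Z peaks in the long Serpinb6a body lay at the start of Nqo2 and over an antisense transcript. Peaks in both livers covered a downstream transcript start of Serpinb6a itself, at percentile 30.8 in WT and percentile 14.8 in Uhrf1hepKO. No ATACseq peak was listed near the gene in either liver, despite its 81 CpGs.

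Among clades C to I, Serpini1 (neuroserpin, an inhibitor of tissue plasminogen activator in the nervous system) was the 1 gene of all 60 with an ATACseq peak at the same place in both livers. The peak was 710 bp wide with a fold of 5.72 (percentile 85.1, q-value 5.9e-08) in WT and 715 bp wide with a fold of 4.97 (percentile 77.3, q-value 2.5e-06) in Uhrf1hepKO. It held 37 and 36 CpGs, covered the TSS of the divergent gene Pdcd10 and reached to 24 and 6 bp from the TSS of Serpini1, with its centre nearer to the Pdcd10 TSS, at 312 and 328 bp, than to that of Serpini1, at 379 and 363 bp. The accessible region could not be assigned to either gene alone. The H2A.Z peak printed above lay inside it, with folds of 8.04 in WT (percentile 88.3) and 7.90 in Uhrf1hepKO (percentile 85.4), and WT had further H2A.Z peaks on either side that Uhrf1hepKO lacked.

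Serpine3, a little studied paralogue, had H2A.Z peaks at -1165 and -856 bp in WT that 1 Uhrf1hepKO peak at -877 bp spanned. Serpine2 (protease nexin 1) had peaks in the gene body alone, of which 1 was shared, 36911 bp downstream in WT.

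The plasma serpins outside the clusters differed from each other. Serping1, the C1 inhibitor of complement, had H2A.Z peaks on either side of its TSS in both livers, and the upstream one ranked at percentile 72.9 in WT and percentile 9.91 in Uhrf1hepKO. Serpind1, heparin cofactor II, had an H2A.Z peak 202 bp upstream in WT (percentile 38.1) and 240 bp upstream in Uhrf1hepKO (percentile 33.5), within the gene Pi4ka. Serpinf1, pigment epithelium-derived factor, had a WT H2A.Z peak over its TSS (fold 4.39, percentile 30.8) and none in Uhrf1hepKO. Serpinc1, antithrombin, had a WT H2A.Z peak in an exon 8639 bp downstream, which lay 137 bp from another of its transcript starts, and no other listed peak. Serpinf2 had none.

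Accessibility and H2A.Z were listed together at all 5 members with a WT ATACseq peak near the TSS and at 5 of 7 in Uhrf1hepKO, the exceptions being Serpina1d and Serpina12, against 92.3 and 90.1% of all genes with an ATACseq peak there. By position, 2 of 5 WT and 3 of 6 Uhrf1hepKO member ATACseq peaks overlapped an H2A.Z peak of the same liver, against 35.7 and 27.4% of all ATACseq peaks. Of the members with H2A.Z near the TSS, 11 of 16 in WT (68.8%) and 12 of 17 in Uhrf1hepKO (70.6%) had no ATACseq peak there. Over all genes with H2A.Z these shares were 46.7 and 50.2%, and the difference was not tested. Among the 7258 genes of at most 20 CpGs, 1584 had H2A.Z and 560 an ATACseq peak near the TSS in WT. In Uhrf1hepKO the counts were 1505 and 566. The share of H2A.Z genes without ATACseq was not computed in that class, to which most members belong.

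The letters of liver factor sites were searched on both strands in the RefSeq promoter windows, which 51 of the 60 members had, with 59 windows in all. GTTAAT occurred in 10 of 59 (16.9%), against 7.10% of 32851 windows of all genes, and in the windows of all 5 Serpina1 copies. TTGCNNAA occurred in 15 (25.4%, against 10.8%), 10 of them among the 20 windows of clade A. TTCNNNGAA occurred in 11 (18.6%, against 8.30%) and TATAAA in 16 (27.1%, against 13.6%), 11 of the latter in clade B. TGTTTAC (FOXA) and CAAAGTCCA (HNF4) occurred in 0 of 59, against 3.65 and 0.475%. Windows of paralogues are copies of each other in part and some members had overlapping windows, so these counts are not independent. Shares over other windows equally poor in CpGs were not computed, and a match is not a bound site.

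The proteases and partners that serpins act on were examined beside them. Of 22 named targets and partners, 21 lay on chromosomes 1 to 19. H2A.Z peaks near the TSS were listed for 14 of them in WT (66.7%, against 54.4% of all genes) and 13 in Uhrf1hepKO (61.9%, against 52.6%), including Plg (plasminogen), F7 and F12 (coagulation factors), Klkb1 (plasma kallikrein) and C1ra and C1s1 (the complement proteases that C1 inhibitor blocks), in both livers. ATACseq peaks were listed for 2 in WT, Lrp1 and Masp1 (9.52%, against 31.4% of all genes), and for 1 in Uhrf1hepKO, Masp2 (4.76%, against 29.0%). Most of the 21 had at most 20 CpGs within 500 bp of the TSS. Over all genes of that kind, the WT and Uhrf1hepKO shares were 21.8 and 20.7% for H2A.Z and 7.72 and 7.80% for ATACseq. No list had a peak near the TSS of F10, Ctsg, Gzmb, Plat or Plaur. Among the 60 Serpin genes the H2A.Z counts were 16 and 17 and the ATACseq counts 5 and 7, and the difference from the targets was not tested.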

How the data were processed

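ATACseq and H2A.Z ChIPseq peak lists of 1 WT and 1 Uhrf1hepKO liver were used as deposited. The authors used BWA-MEM for alignment to GRCm38.p4 and PICARD for cleaning, sorting and, for ChIPseq, removal of duplicates, and called peaks per library with MACS2 at a p-value setting of 0.05, in broad mode for ATACseq. FastQC 0.11.5 and Trimmomatic are in the submitters' processing notes. The MACS2 version, a control library, a shift of ATACseq reads and the mode for H2A.Z are not given in the sources used here. The deposited values are a score (10 times the −log10 q-value, cut to a whole number), a fold enrichment (a ratio of pileup to local background within 1 library), −log10 p- and q-values and, for H2A.Z, another value, the summit distance. The highest q-values listed were 0.0997 and 0.0993 for ATACseq and 0.0500 and 0.0489 for H2A.Z. The lists thus end near q-values of 0.1 and 0.05, and the stated p-value setting may not be what bounded them.

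Peaks of chromosomes 1 to 19 were written 1-based and joined to GENCODE vM21 genes by an overlap of at least 1 bp with 5 kb around the gene's 5′ end or with its body. A fold percentile is the rank of a peak's fold within its own list. A cluster is a run of neighbouring members, at least 3 genes with gaps of at most 250 kb. CpGs and recurring stretches of 75 bases were counted in the GRCm38 FASTA. Promoter windows came from RefSeq (GRCm38.p6), and 9 members were not in that table. Biopython 1.88, pandas 2.3.3 and numpy 2.4.6 were run under Python 3.11.15, and the overlap and counting steps were tested on simulated data. Background reads were inferred from the commonest fold value of a list, which fixes the ratio of whole reads to background.

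Named were members with a peak in at least 3 lists, the member with the highest fold of each clade and list, members with a peak in 1 genotype alone, and members of textbook role. For 1 member the individual values, and for 1 peak the sequence, are not reported here, and both stay in the counts. The members and lists were chosen with earlier results of these data known. With 1 library per condition no test was made, and shares carry Wilson 95% intervals. Alternatives were the peak threshold, window, start, overlap, member definition and, added after the data were seen, the CpG bound.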

Additional observations from a re-analysis of the deposited data

How the results depend on the processing

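Restricting lists to peaks at or above their median fold left 1 member with an ATACseq peak near the TSS in WT and 1 in Uhrf1hepKO, 0 and 0 in gene bodies, and 8 with a Uhrf1hepKO H2A.Z peak near the TSS and 8 in gene bodies, and the shared share of WT ATACseq peaks became 100%, from 1 peak. A q-value of at most 0.01 gave 1 and 1 near the TSS, 0 and 0 in gene bodies and again 100% shared. A window of 500 bp left 3 members with a Uhrf1hepKO ATACseq peak and 8 with a Uhrf1hepKO H2A.Z peak. Gene bodies without 5 kb around the TSS gave 2 (WT) and 1 (Uhrf1hepKO) members for ATACseq and 9 and 8 for H2A.Z. Counting WT H2A.Z peaks as shared when edges were within 500 bp raised the share to 92.3%. Among the other 63 values, the WT H2A.Z count near the TSS still fell from 16 to 11 at or above the median fold. It was also 11 with a window of 500 bp, and the WT H2A.Z count in gene bodies fell from 16 to 12 at or above the median fold. The rest of these values stayed near the reported count or within the interval of the share, the added bounds of 10 and 30 CpGs among them. No paired analysis was possible because each condition had 1 library and no test was made. The ATACseq counts thus depended on the threshold, and the H2A.Z counts of both livers in part on the fold bound. The shallow background limits all statements on absent peaks.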

Other observations

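The X-linked protein-coding member, Serpina7 (thyroxine-binding globulin), and the 7 annotated Serpin genes of other biotypes on chromosomes 1 to 19 had no peak of any list within 5 kb of the TSS or in the body. In the chromosome 13 run, 5 H2A.Z peaks of each liver lay between members rather than at them, and in the chromosome 12 run 6 in WT and 5 in Uhrf1hepKO did.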
